A study of Mus musculus with 10 samples.

Results

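NRF2 antioxidant and glutathione genes were followed in single mouse cells on the chemical route from fibroblasts to extraembryonic endoderm (XEN)-like cells. The set held 10 genes of 23197 in the count table, chosen by name with earlier results of these data known: *Gsta1*, *Gsta4*, *Gstm1*, *Nqo1*, *Hmox1*, *Gclc*, *Gclm*, *Txnrd1*, *Srxn1* and *Slc7a11*. Mouse embryonic fibroblasts (MEFs) before induction formed group d0. All later groups had received C6FAE, the cocktail of CHIR99021 (a GSK3 inhibitor), RepSox (an ALK5 inhibitor), Forskolin (a cAMP agonist), AM580 and EPZ004777, and were named d1, d2, d3, d4, d5, d6p, d8, d8c, d12, d12c and d20 by day. Cells of d8c and d12c came from colonies, as the study describes them, and the meaning of p is not given in the sources used here. The induction medium contained 2-mercaptoethanol, a thiol reducing agent, and was renewed every 4 days. For the fibroblast medium the sources differ, since the labels list 2-mercaptoethanol in it and the study's methods do not, so d0 and the later groups may have differed in this agent. Its part in the values below was not tested. The study's methods also list KnockOut DMEM, serum replacement and basic fibroblast growth factor for induction. For fibroblasts they list high-glucose DMEM without these additions. Such changes of medium came together with the cocktail and cannot be told apart from it. The time from the last renewal to cell picking is not given in the sources used here. The fibroblasts were isolated from ICR mouse embryos at mid-gestation after head, limbs and viscera had been taken off, and no cell can be traced to an embryo or culture.

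Cells were picked by hand. Of 808 cells, the 670 with at least 4000 detected genes were kept, between 20 (d8c) and 86 (d6p) per group. They held a median of 510306 UMIs (unique molecular identifiers, each standing for 1 captured mRNA), from 17633 to 6004864. The shallowest group was d20 with a median of 195480 UMIs, and the deepest d2 with 1055206. Levels are given as CPM, UMIs per 1000000 UMIs of the cell without spike-in RNA. Cell names give a time group and a running number but no batch, and cells were not matched to the 10 samples of the series. All cells therefore counted as 1 sample, no test between groups was possible, and an SD here describes the spread between cells. All cell names differed, and the barcodes behind them were not used here. Summed fibroblast markers had a median of 3277 CPM at d0 (88.5 to 12116) and 10626 CPM at d12 (610 to 56002), against 241 CPM at d20 (8.06 to 940). Summed XEN markers had a median of 159 CPM at d0 (5.19 to 2955) and 113 CPM at d12 (13.01 to 3088), against 2077 CPM at d20 (204 to 3737). The sum does not show single markers. In mean log2(CPM + 1), *Sox17* (3.16), *Gata6* (1.35), *Lama1* (1.32) and *Gata4* (1.20) were higher at d12 than at d0. *Dab2* was lower (-1.97), and no other XEN marker differed by 1 or more. The cells of d12c numbered 49 to 96 stood apart from those numbered 1 to 48, with a median of 172 against 6331 CPM of fibroblast markers and of 1486 against 239 CPM of XEN markers. They are therefore described as 2 sets.

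NRF2 (encoded by *Nfe2l2*) is the main transcription factor of the response to electrophiles and oxidants. KEAP1 holds it for degradation until its reactive cysteines are modified, after which NRF2 pairs with a small MAF protein on antioxidant response elements, while BACH1 occupies the same elements as a repressor. Its known targets import cystine, make glutathione, couple glutathione to electrophiles, reduce quinones, break down heme and keep thioredoxin and peroxiredoxins reduced. Fibroblasts use these systems in culture, where oxygen is higher than in the embryo.

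The core of the antioxidant response element, TGACNNNGC, was searched on both strands in the 1000 bases before each protein-coding transcript start of the GENCODE M1 annotation (mm9, NCBIM37), where 10 of 10 member symbols were found. It was present before 5 of the 10 members and before 37.4% of all 22380 genes searched. The core directly followed by A, a subset of the same matches, was present before 3 members (*Gsta1*, *Txnrd1* and *Slc7a11*) and 12.3% of all genes. The matches are printed to show where these letters lie near the genes whose levels follow. Whether NRF2 binds at any of them was not tested. Each is 29 bases long, 5′ to 3′ on the strand of the match, with the core in capitals and 10 flanking bases on either side.
Gsta1, chr9:78077760-78077788, plus strand, 685 bases before the start: ttgctaatggTGACAAAGCaactttccca
Gsta1, chr9:78077745-78077773, plus strand, 700 bases before the start: agcttggaaaTGACATTGCtaatggtgac
Gclm, chr3:121948331-121948359, minus strand, 126 bases before the start: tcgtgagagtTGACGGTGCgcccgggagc
Txnrd1, chr10:82321849-82321877, minus strand, 84 bases before the nearest start: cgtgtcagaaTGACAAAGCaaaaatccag
Txnrd1, chr10:82321543-82321571, minus strand, 390 bases before the nearest start: gcactggctgTGACCCTGCcaaatagttg
Srxn1, chr2:151931278-151931306, minus strand, 170 bases before the nearest start: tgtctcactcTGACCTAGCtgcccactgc
Slc7a11, chr3:50248388-50248416, plus strand, 863 bases before the start: aggaaggagaTGACAGGGCatattttttg
The 2 *Gsta1* matches overlap in their flanks. The *Srxn1* match lies within an exon of another *Srxn1* transcript, while the others lay in no annotated exon of their gene. Both *Txnrd1* matches lie inside the span of the gene (chr10:82296696-82360469), before a later one of its 3 starts. Genes with several starts had more sequence searched. *Gsta1* and *Txnrd1* share the 9-base core TGACAAAGC. The other 5 members had no match in this window, which says only that these letters are not there.

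The glutathione transferases couple glutathione to electrophiles, GSTA4 above all to the lipid peroxidation product 4-hydroxynonenal. *Gsta1* (chr9:78078463-78090491, mm9) had a mean of 1.19 CPM at d0, 79.2 ± 225 CPM at d1 (SD, n = 40 cells) and 7.07 CPM at d2. It was detected in 19 of 72 cells at d0 (26.4%, 95% exact interval 16.7 to 38.1%), in 31 of 40 at d1 (77.5%, 61.5 to 89.2%) and in 0 of 62 at d8, which allows a share of up to 4.84%. At d1 the median cell held 5.44 CPM and the highest 1074 CPM, and 6 cells had over 100 CPM, so a minority of the d1 cells carried most of its UMIs. After every cell was thinned to 50000 UMIs it was detected in 1 of 71 cells at d0 and 16 of 40 at d1. Its d12 mean of 12.8 CPM came to 2.44 CPM without the highest cell (694 CPM). Sharing of reads limits these values, since the coding sequence of *Gsta1* is 99.7% identical to that of *Gm3776* and 97.91% identical to that of *Gsta2*, and *Gsta1* counts are uncertain for that reason. *Gm3776* had a mean of 40.6 CPM at d1 and 0.749 CPM at d0, and *Gsta2* of 52.2 and 1.21 CPM.

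*Gsta4* (chr9:78039773-78057155) had its highest group mean at d1 too, with 843 ± 1030 CPM (SD, n = 40 cells) against 141 CPM at d0 and 397 CPM at d2. Medians followed the same order, at 343, 71.3 and 146 CPM. The upper quartile at d0 was 183 CPM and the lower quartile at d1 was 98.5 CPM, so the middle ranges overlapped. From d3 to d8 the mean lay between 99.1 and 170 CPM. At d12 mean and median parted, with a mean of 170 CPM and a median of 11.5 CPM, and the mean came to 109 CPM without the highest cell of 4192 CPM. At d20 the gene was detected in 13 of 38 cells (34.2%, 19.6 to 51.4%), against 71 of 72 at d0. The coding sequences of *Gsta1* and *Gsta4* are 66.47% identical.

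*Gstm1* (chr3:107815173-107820891), a mu-class transferase, had another course. Its mean was 75.1 CPM at d0, 29.6 CPM at d4, 158 CPM at d8, 254 ± 302 CPM at d12 (SD, n = 67 cells) and 319 ± 367 CPM at d20 (SD, n = 38 cells). Medians were 37.0 CPM at d0, 4.54 at d4, 135 at d12 and 237 at d20. It was the member with the highest d20 level relative to d0. The d8c mean of 238 CPM came to 70.0 CPM without the highest of its 20 cells. Both sets of d12c cells held it, with means of 203 CPM in those numbered 49 to 96 and 186 CPM in the others. *Gstm1* is 86.0% identical to *Gstm2* and 82.8% to *Gstm6* in its coding sequence.

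NQO1 reduces quinones with NAD(P)H in a single step that yields no radical. *Nqo1* (chr8:109912125-109927106) had means of 29.6 CPM at d0, 94.0 ± 90.4 CPM at d1 (SD, n = 40 cells) and 65.7 CPM at d2. The d1 median of 82.3 CPM lay above the d0 upper quartile of 42.4 CPM. Detection declined from 39 of 40 cells at d1 (97.5%, 86.8 to 99.9%) to 21 of 62 at d8 (33.9%, 22.3 to 47.0%). At d20, 1 UMI was counted in 38 cells, which is 0.114 pooled CPM with an exact Poisson interval of 0.00287 to 0.632 CPM. The d4 mean of 40.4 CPM rested on 1 cell of 1604 CPM, without which it was 19.9 CPM, and the 17.4 CPM of the d12c cells numbered 49 to 96 came to 4.36 CPM without their highest cell.

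HMOX1 opens the heme ring and releases iron, carbon monoxide and biliverdin. *Hmox1* (chr8:77617490-77624495) had its highest mean at d12. Its mean was 605 ± 534 CPM at d12 (SD, n = 67 cells), with a lowest cell of 25.5, a median of 499.98 and a highest cell of 2386 CPM. Group means elsewhere ran from 12.8 CPM (d8c) to 171 CPM (d12c). The d12 lower quartile of 149 CPM was above the upper quartile of each other group except d12c, where it was 170.5 CPM. The 2 number ranges of d12 were alike, at 622 CPM (cells numbered 1 to 48) and 570 CPM (the others). At d1 the mean was 48.6 CPM and at d0 123 CPM, which came to 75.01 CPM without 1 cell of 3520 CPM, and the medians of 36.4 and 34.3 CPM were close. Macrophages are known for high *Hmox1*. Their defining markers *Ptprc* and *Adgre1* had no UMI at d12 and *Lyz2* had a mean of 0.0981 CPM, while *Csf1r* and *Cd68* had means of 6.36 and 17.9 CPM. Summed, the 5 macrophage markers had a median of 4.48 CPM at d12 (0 to 391.8) and of 0 at d0 (0 to 180). Of 5 endothelial markers *Kdr* alone reached a mean of 1 CPM at d12, at 36.2 CPM, and their sum had a median of 3.80 CPM (0 to 308) against 0 at d0 (0 to 237). The part of such cells in the *Hmox1* level was not tested.

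GCLC and GCLM are the catalytic and the modifier subunit of glutamate-cysteine ligase, which makes the first peptide bond of glutathione. The 2 subunits took different courses. *Gclm* (chr3:121948475-121972902) had means of 46.2 CPM at d0, 101 ± 112 CPM at d1 (SD, n = 40 cells) and 5.84 CPM at d8. It then had 20.4 CPM at d12 but 111 ± 102 CPM in the d12c cells numbered 49 to 96 (SD, n = 30 cells) and 85.7 ± 103 CPM at d20 (SD, n = 38 cells). Medians in these 3 sets were 4.24, 83.0 and 60.2 CPM. *Gclc* (chr9:77602342-77642292) stayed low in every group, between 5.40 CPM (d8) and 22.9 CPM (d8c), and the d8c value came to 8.19 CPM without its highest cell. It was detected in 23 of 72 cells at d0 (31.9%, 21.4 to 44.0%) and in 28 of 40 at d1 (70.0%, 53.5 to 83.4%).

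SLC7A11 is the cystine-importing subunit of system xc-. *Slc7a11* (chr3:50168858-50247535) had means of 28.9 CPM at d1, 34.0 CPM at d6p and 41.7 ± 65.5 CPM at d12 (SD, n = 67 cells). Its d0 mean of 7.21 CPM came to 2.91 CPM without the highest cell. It was detected in 58 of 67 cells at d12 (86.6%, 76.0 to 93.7%), in 6 of 30 d12c cells numbered 49 to 96 (20%, 7.71 to 38.6%) and in 1 of 38 at d20 (2.63%, 0.0666 to 13.8%). That d20 cell held all 18 UMIs of its group.

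TXNRD1 reduces thioredoxin and SRXN1 restores peroxiredoxins that have been oxidized beyond the reach of thioredoxin. *Txnrd1* (chr10:82296696-82360469) was detected in nearly all cells, in 71 of 72 at d0 and 40 of 40 at d1. Its mean was 112 CPM at d0, 395 ± 173 CPM at d1 (SD, n = 40 cells), 249 CPM at d2, 85.6 CPM at d8, 304 ± 313 CPM at d12 (SD, n = 67 cells) and 132 CPM at d20. At d1 the lowest cell held 90.8 CPM and the lower quartile of 289 CPM was above the d0 upper quartile of 144 CPM. *Srxn1* (chr2:151931252-151937112) had means of 16.5 CPM at d0 (10.7 CPM without the highest cell), 56.2 ± 49.6 CPM at d1 (SD, n = 40 cells) and 24.9 to 44.8 CPM from d2 to d8, and d8c had 13.9 CPM. At d12 it had 245 ± 274 CPM (SD, n = 67 cells), with a lowest cell of 4.55, a median of 182 and a highest of 1515 CPM. The d12 lower quartile of 63.3 CPM was far above the d0 upper quartile of 8.85 CPM but below that of d1, 73.2 CPM. The d12c cells numbered 1 to 48 held 154 CPM and those numbered 49 to 96 held 15.1 CPM (9.17 CPM without the highest cell). At d20 the gene was detected in 7 of 38 cells (18.4%, 7.74 to 34.3%).

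**Figure D1:**
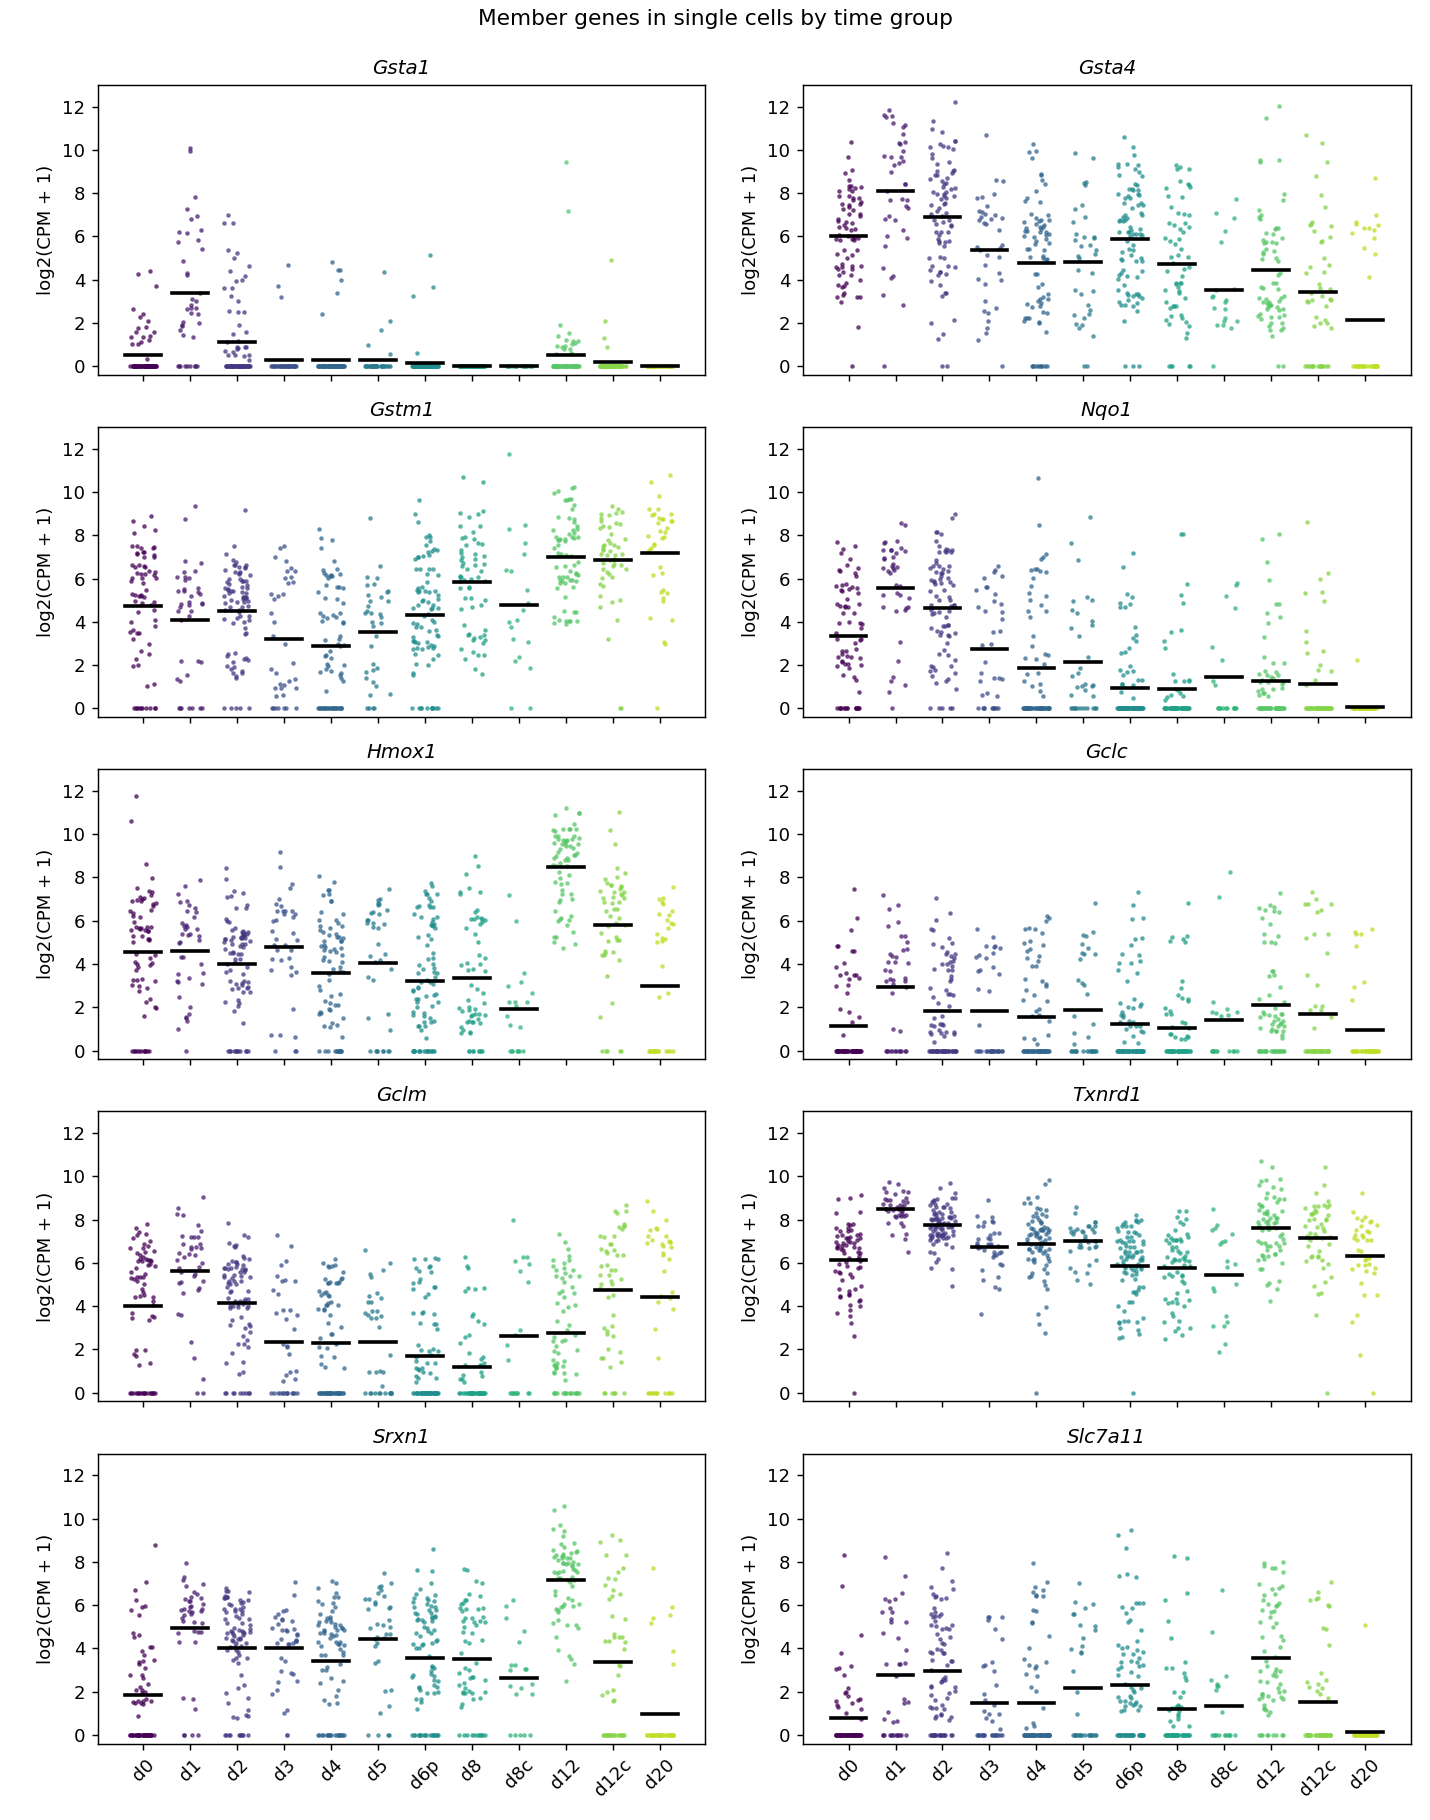
Each point is a cell and each panel a member gene, with log2(CPM + 1) on the vertical axis, the 12 time groups on the horizontal axis and a black bar at the group mean. *Gsta1*, *Gsta4*, *Nqo1* and *Txnrd1* have their highest bar at d1, *Hmox1*, *Srxn1* and *Slc7a11* at d12 and *Gstm1* at d20.

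The 10 members thus had their highest levels in different groups. In mean log2(CPM + 1), *Gsta1*, *Gsta4*, *Nqo1*, *Gclc*, *Gclm* and *Txnrd1* were highest at d1 among the 12 groups, *Hmox1*, *Srxn1* and *Slc7a11* at d12 and *Gstm1* at d20. The d12c cells numbered 49 to 96, taken alone, had *Gclm* at 5.69, beside 5.64 at d1. For *Gclc*, d1 and d12 were neighbours in that order, at 2.92 and 2.08, within an SD over cells. Values over cells overlapped between all groups for every member.

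The first day of induction was compared with MEFs on the scale of mean log2(CPM + 1), counting differences of at least 1. At d1, 8 of 10 members were higher than at d0, where 19.3% of the 9441 measured genes were. No member was lower, against 4.57% of all genes. *Srxn1* differed by 3.10 and *Gsta1* by 2.87, followed by *Txnrd1* (2.35), *Nqo1* (2.18), *Gsta4* (2.08), *Slc7a11* (1.99), *Gclc* (1.77) and *Gclm* (1.64). In the order of all measured genes from the highest difference down, *Srxn1* was number 17, *Gsta1* number 29 and *Txnrd1* number 83. *Hmox1* differed by 0.05 and *Gstm1* by -0.66, so the heme-degrading enzyme and the mu-class transferase did not share the d1 level of the rest. The median difference was 2.03 over the members and 0.43 over all measured genes. *Gsta1* and *Slc7a11* counted as measured only through d1, with d0 means of 0.52 and 0.77 on this scale. Ratios of mean CPM were 3.40 for *Srxn1*, 3.51 for *Txnrd1*, 5.98 for *Gsta4* and 3.17 for *Nqo1*. With all cells thinned to 50000 UMIs, 8 members were again higher, against 19.8% of all genes. The 40 cells of d1 bear the numbers 1 to 40 only, so the time point and any batch cannot be told apart.

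Levels at d2 and d4 were set against d1 in comparisons that were added after values had been seen. At d2, 4 of 10 members were lower than at d1 (*Gsta1*, *Gclm*, *Gsta4* and *Gclc*), against 1.91% of all genes, and none was higher against 6.33%. At d4 10 of 10 were lower than at d1, against 14.5% of all genes, with differences from -1.02 (*Hmox1*) to -3.68 (*Nqo1*), and none was higher against 13% of all genes. *Gsta1* counted as measured in this pair only through d1, where it was high. These comparisons share the d1 cells with that of d1 and d0. The number ranges of d4 differed by more than 2 times in 5 members. *Nqo1* had 8.54 against 74.9 CPM in cells numbered 1 to 48 and the rest, *Slc7a11* had 2.63 against 30.3 CPM, *Gclc* had 3.35 against 14.7 CPM, *Gsta1* had 0.367 against 2.23 CPM and *Gstm1* had 42.1 against 16.03 CPM. Without the highest cell of each range *Nqo1* had 5.14 and 32.5 CPM, *Slc7a11* had 0.493 and 24.3 CPM, and *Gstm1* had 9.94 CPM in the later range. *Txnrd1* had 125.2 against 230.1 CPM and *Srxn1* had 31.1 against 18.2 CPM.

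At d5, of 9 members measured, 2 were higher than at d0 (*Srxn1* by 2.61 and *Slc7a11* by 1.38), against 29.1% of 9898 genes, a share close to that of the members. Lower were 4, *Gclm* by 1.64, *Nqo1* by 1.23, *Gstm1* by 1.21 and *Gsta4* by 1.20, against 6.38% of all genes. With a pseudocount of 10 none of these 4 passed, and under log2 of mean CPM *Nqo1* (means of 27.1 and 29.6 CPM) and *Gsta4* (means of 109.97 and 140.9 CPM) did not. *Slc7a11* counted as measured in this pair only through d5. *Txnrd1* stood at 0.86, *Gclc* at 0.71 and *Hmox1* at -0.52. *Gsta1* was under the level for a measured gene in both groups. The median of all genes was 0.52 in this comparison.

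At d12, where fibroblast markers were high, 5 of 9 measured members were higher than at d0, against 19.8% of 9611 genes. They were *Srxn1* (5.32), *Hmox1* (3.94), *Slc7a11* (2.79), *Gstm1* (2.27) and *Txnrd1* (1.48). Of all measured genes *Srxn1* was number 34 and *Hmox1* number 126 from the highest difference down. In mean CPM *Srxn1* was 14.8 times, *Hmox1* 4.93 times and *Slc7a11* 5.79 times its d0 level, and each of these d0 means was more than 1.5 times its value without the highest cell. Lower were 3 members, *Nqo1* by -2.11, *Gsta4* by -1.58 and *Gclm* by -1.24, against 16.3% of all genes. *Gsta4* had the opposite order in mean CPM, 170 at d12 and 141 at d0, with over 100 CPM in 11 of 67 cells at d12 and in 30 of 72 at d0. *Gclc* differed by 0.94. The median of all genes was -0.01. *Slc7a11* counted as measured only through d12, and *Gsta1* was not measured. The same 5 and 3 members passed in the d12 and d0 cells numbered 1 to 48 and again in those numbered 49 to 96. Against d8, a comparison added after values had been seen, 7 of 9 members were higher (14.2% of all genes) and none lower (14.6%), with *Hmox1* at 5.13, *Srxn1* at 3.65 and *Slc7a11* at 2.35. *Nqo1* and *Gsta4*, which were high at d1, differed by 0.35 and -0.27 between d12 and d8. ERCC spike-ins made up a median of 11.03% of the UMIs at d12, 6.12% at d8 and 3.28% at d0, and their part in these values was not tested.

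**Figure D2:**
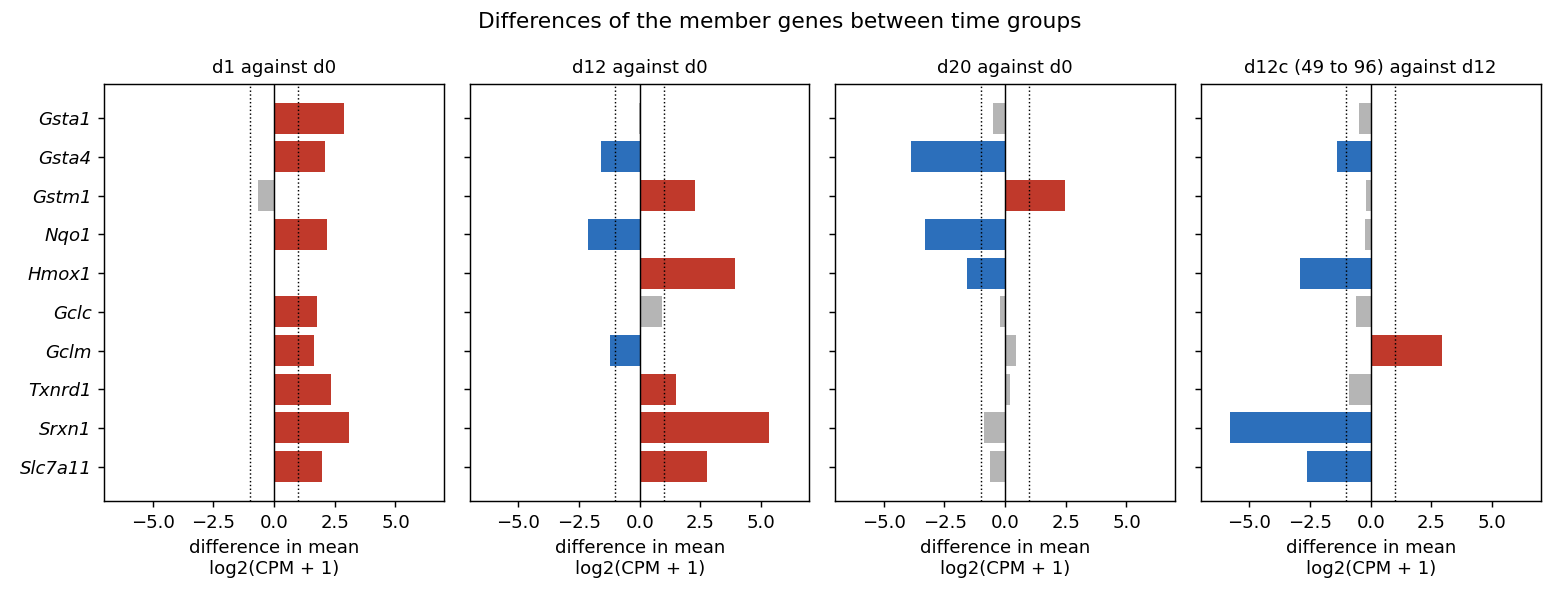
Bars give the difference between 2 groups in mean log2(CPM + 1) for each member, red where it is higher by at least 1, blue where lower by at least 1 and grey otherwise or where the gene was not measured; dotted lines mark a difference of 1. The 8 red bars at d1 give way at d12 to 5 red and 3 blue ones, and *Gclm* is alone in red where d12c cells numbered 49 to 96 are set against d12.

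The cells of XEN-like marker pattern were compared with d12 and with d0. In the d12c cells numbered 49 to 96, 4 of 9 measured members were lower than at d12, against 32.2% of 9648 genes, and 1 was higher, against 17.3%. The lower ones were *Srxn1* (-5.81), *Hmox1* (-2.89), *Slc7a11* (-2.63) and *Gsta4* (-1.37), and *Gclm* was the higher one (2.92). *Slc7a11* counted as measured in this pair only through d12, where it was high, with a mean of 0.93 in the d12c cells on this scale. The count of 4 is limited by this when read against the share of all genes. *Gsta4* kept its place in 7 of 13 other ways of computing, and the thinned value was -0.52. *Nqo1* differed by -0.24, *Gstm1* by -0.18, *Gclc* by -0.59 and *Txnrd1* by -0.90. The median of all genes was -0.34. *Hmox1* kept a mean of 196 ± 386 CPM in these cells (SD, n = 30), which came to 132 CPM without the highest cell, and a median of 133 CPM. The d12c cells numbered 1 to 48 had *Srxn1* and *Txnrd1* means of 154 and 314 CPM, so the low *Srxn1* level was seen in the d12c range with XEN markers.

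At d20, 7 of 9 measured members were lower than at d12, against 30.9% of 9749 genes, and *Gclm* alone was higher (1.66), against 20.5%. The differences were -6.18 for *Srxn1*, -5.52 for *Hmox1*, -3.43 for *Slc7a11*, -2.30 for *Gsta4*, -1.30 for *Txnrd1*, -1.20 for *Nqo1* and -1.15 for *Gclc*. The median of all genes was -0.20. Of these 7, *Srxn1*, *Slc7a11*, *Nqo1* and *Gclc* counted as measured only through d12, with d20 means of 0.97, 0.13, 0.06 and 0.93 on this scale, so the count of 7 cannot be read against the share of all genes. With cells thinned to 50000 UMIs, *Nqo1* and *Gclc* no longer passed. The number of UMIs per cell was lower at d20 (median 195480) than at d12 (768565), and spike-ins made up a median of 19.3% of the UMIs at d20. Set against d0, 1 of 8 measured members was higher at d20, *Gstm1* by 2.47, against 15% of 9352 genes. Lower were *Gsta4* (-3.88), *Nqo1* (-3.31) and *Hmox1* (-1.58), against 25.1% of all genes, which is near the share of the members. *Gclm*, *Txnrd1*, *Gclc* and *Srxn1* differed by 0.43, 0.19, -0.22 and -0.86. *Gsta1* and *Slc7a11* were not measured in this pair, and *Nqo1*, *Gclc* and *Srxn1* counted as measured only through d0. The 8 d20 cells numbered 49 to 96 held *Gstm1* at 137 CPM and the 30 others at 368 CPM, and *Srxn1* at 34.5 and 4.53 CPM, where the former came to 9.64 CPM without 1 cell.

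*Gclm* and *Srxn1* differed between these groups in opposite directions, which counts of cells also show. At d12, 67 of 67 cells had a UMI of *Srxn1* and 52 of *Gclm*, and 44 cells had over 100 CPM of *Srxn1* but 2 of *Gclm*. In the d12c cells numbered 49 to 96, *Srxn1* was over 100 CPM in 3 of 30 and *Gclm* in 12. At d20 the counts were 1 and 16 of 38 cells. At d1 the pair was high together, with a UMI of *Srxn1* in 36 of 40 cells and of *Gclm* in 38. Between cells of the same group the pair had a Spearman rho of 0.0176 at d12 (n = 67 cells) and 0.135 at d1 (n = 40 cells).

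**Figure D3:**
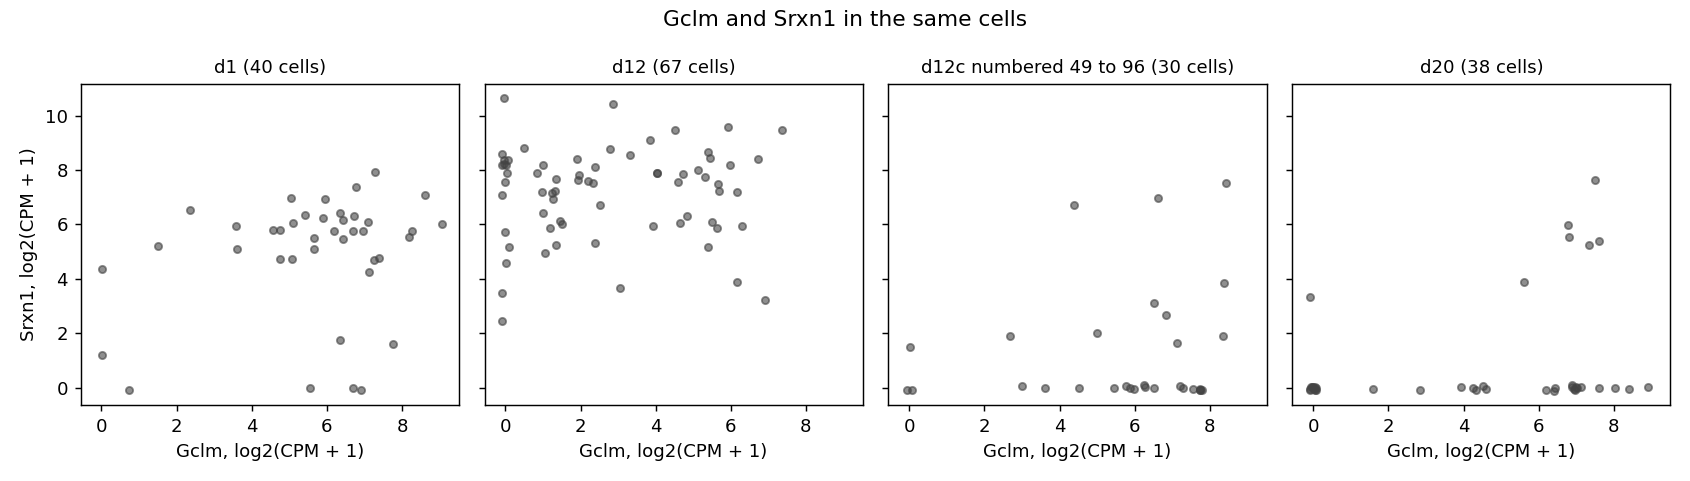
Each point is a cell, with log2(CPM + 1) of *Gclm* on the horizontal and of *Srxn1* on the vertical axis, jittered slightly to part the cells at 0, in 4 sets of cells. At d12 the points lie high on the *Srxn1* axis, and at d20 and in d12c numbered 49 to 96 most lie along its foot.

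Members could also be counted within a cell. At d1 the median cell held 7 of the 10 members at 20 CPM or more, and 27 of 40 cells (67.5%) held at least 6. At d0 the median was 4.5 members and 12 of 72 cells (16.7%) held at least 6. The median was 5 at d2 and at d12, where 39 of 83 and 28 of 67 cells held at least 6, and 3 at d4, d6p and d8. At d20 it was 3.5 and no cell of 38 held 6. Between cells of d1 the highest rank correlations were those of *Gsta4* with *Nqo1* (Spearman rho 0.634, n = 40 cells) and with *Gsta1* (0.627), which describe cells that may share a library. The median of the 45 pairs at d1 was 0.236. At d12 the highest of 28 pairs was 0.361 (*Gstm1* with *Gclc*), and *Hmox1* with *Srxn1* had 0.323 (n = 67 cells). The median of the 28 pairs at d12 was 0.0945.

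Over the 12 group means, the members most alike were *Srxn1* and *Slc7a11* (Pearson r = 0.903), *Gsta4* and *Nqo1* (0.871) and *Gclc* and *Txnrd1* (0.864), and the least alike were *Gsta4* and *Gstm1* (-0.562). *Gclm* and *Srxn1* had -0.126. Among 10732 genes, the pattern most like *Gsta1* was that of its near copy *Gm3776* (0.980), with which it may share reads. *Gsta4* was most like *Alcam* (0.971), *Nqo1* like the histone gene *Hist1h2ag* (0.978), *Gstm1* like *Ctsh* (0.924) and *Hmox1* like *Nedd4l* (0.949). *Srxn1* and *Slc7a11* had the same gene at the head of their order, *Golph3* (0.9503 and 0.938). *Txnrd1* was most like *Hnrnpu* (0.951), *Gclm* like *Tomm5* (0.945) and *Gclc* like *Krt13* (0.926). These values describe 12 points in which library, depth and day were not separated.

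The other genes of the pathway were taken from lists by role. Their counts stand beside shares of all measured genes of 19.3% higher and 4.57% lower at d1, 19.8% and 16.3% at d12, and 15% and 25.1% at d20, each against d0. Some listed genes counted as measured only through the group where they were high. Among these were the transferase gene *Gsta2* and the conjugation gene *Aldh3a1* at d1, and the dismutase gene *Sod3* at d12. The list counts are limited by this when read against the shares. Among 10 regulators of NRF2, 3 were higher at d1 than at d0 (*Nfe2l2*, *Mafg* and *Bach1*), 5 at d12 (those 3 with *Mafk* and *Maff*) and 1 at d20 (*Bach1*), where *Maff* was lower. Their median difference was 0.38 at d1, 1.01 at d12 and -0.32 at d20, against 0.43, -0.01 and -0.20 over all genes. *Nfe2l2* itself had means of 86.5 CPM at d0, 192 CPM at d1, 323 CPM at d12, 88.3 CPM in d12c cells numbered 49 to 96 and 117 CPM at d20. It differed from d0 by 2.19 at d1 and by 2.78 at d12. *Bach1*, the repressor, had 15.9 CPM at d0, 22.9 at d1 and 82.6 at d12, and *Mafg*, a partner of NRF2, had 11.02, 23.2 and 63.3 CPM. *Keap1* had 27.2, 24.7 and 21.0 CPM at these days, differing by 0.24 and -0.44.

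Of the genes that make, recycle and spend glutathione, at d1 3 of 9 measured were higher and none lower: *Gsr*, glutathione reductase, had 21.3 CPM against 5.03 at d0, *Glrx*, a glutaredoxin, 33.9 against 12.0, and *Ggct*, which cleaves gamma-glutamyl peptides, 34.8 against 5.53 (22.1 without the highest d1 cell). At d12 2 of 8 were higher and 1 lower. *Glrx* had 260 CPM (difference 5.08), *Gpx3*, a secreted glutathione peroxidase, 331 against 26.6 CPM (4.21), and *Gss*, which completes glutathione, 21.7 against 31.4 CPM (-1.06). At d20 3 of 9 were higher than at d0 and 2 lower. *Gpx3* stayed at 411 CPM, while *Gpx8* had 111 against 533 CPM and *Gpx7* 24.8 against 127 CPM. *Gsr* and *Ggct*, low at d12 with 4.08 and 3.26 CPM, had 32.4 and 26.6 CPM in the d12c cells numbered 49 to 96 and 26.1 and 24.4 CPM at d20, where *Ggct* came to 14.5 CPM without the highest cell. In this they were on the side of *Gclm*, not of *Srxn1*.

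Of 13 other glutathione transferases measured, 3 were higher and 1 lower at d1, and 8 were higher and none lower at d12. The shares of all genes were 19.3% and 4.57% at d1, near the count for higher genes, and 19.8% and 16.3% at d12. *Mgst1*, a membrane-bound transferase, had 140 CPM at d0 and 1149 CPM at d12 but 1.99 CPM at d20 (1.02 CPM without the highest cell). *Gstm2* had 81.9 CPM at d0, 9.82 at d1 and 211 at d12. *Gstk1* had 41.1 CPM at d12 against 9.26 at d0. At d20 4 of 14 were lower, with *Gsto1* at 90.4 against 591 CPM and *Gsto2* at 1.31 CPM, all of it in 1 cell, against 19.4 CPM, and 3 were higher.

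Genes that supply NADPH, which thioredoxin reductase, glutathione reductase and NQO1 all consume, had a median difference of 1.28 at d1. *G6pdx* (78.4 against 22.3 CPM), *Pgd* (150.1 against 60.7 CPM) and *Tkt* (112 against 67.8 CPM) of the pentose phosphate pathway were the 3 higher ones of 6, and *Idh1* was lower. At d12 2 were higher, *Me1* (129 against 56.6 CPM) and *Tkt* (105 CPM). At d20 *Pgd* (209 CPM) and *Tkt* (170.1 CPM) were higher and *Me1* (46.9 CPM) lower. Among thioredoxin, peroxiredoxin, dismutase and catalase genes, 5 of 13 were higher at d1 and 1 was lower, *Txnip*, the inhibitor of thioredoxin, with 0.180 against 20.9 CPM. At d12 3 of 14 were higher and 3 lower, with *Sod2* at 340 against 100.3 CPM, *Prdx6* at 1179 against 380 CPM and *Txnip* at 1.51 CPM (0.211 CPM without the highest cell). At d20 1 of 13 was higher, *Cat* (53.2 against 18.7 CPM), and 2 were lower, *Prdx5* (117 against 451 CPM) and *Txnrd2* (7.88 against 14.1 CPM, or 5.18 CPM without the highest d20 cell).

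The heme and iron genes did not share the d12 level of *Hmox1* as a list, with a median of -0.36. *Blvrb* (112 against 45.4 CPM) and ferritin heavy chain *Fth1* (3856 against 1616 CPM) were higher at d12, and *Blvra*, biliverdin reductase A, was lower (18.8 against 51.6 CPM), of 5 measured. At d1 2 of 5 were higher, *Blvrb* and *Fth1*. At d20 2 of 6 were higher, *Fth1* (5009.8 CPM) and *Slc40a1*, the iron exporter (9.68 against 1.19 CPM, or 6.19 and 0.793 CPM without the highest cell of each group), and *Blvrb* and *Blvra* were lower. *Blvra* had the opposite order in mean CPM, 53.98 at d20 and 51.6 at d0. Conjugation and export genes were higher in 5 of 9 at d1 and in 4 of 7 at d12, and lower in 1 each time (*Ephx1*), where 19.3% and 19.8% of all genes were higher and 4.57% and 16.3% lower. *Abcc1*, which exports glutathione conjugates, had 20.2 CPM at d0, 77.5 at d1, 99.6 at d12 and 12.8 at d20 (8.29 without the highest d20 cell), and the aldo-keto reductase gene *Akr1b8* had 44.3, 151, 209 and 35.7 CPM. At d20 5 of 7 of this list were lower and 2 higher.

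*Slc7a11* is also a known target of ATF4, and its partner and the ATF4 response were therefore listed. *Slc3a2*, the heavy chain of the transporter, had 253 CPM at d0, 505 at d12 and 293 at d20, so it did not follow *Slc7a11* to near 0. At d12 none of 6 measured genes of this list was higher and 2 were lower, *Ddit3* (5.63 against 40.9 CPM) and *Sesn2* (2.38 against 15.0 CPM). *Atf4* had 206 against 170 CPM. Set against d8, 2 of 6 were higher at d12, *Atf4* (1.39) and *Asns* (1.26), against 14.2% of all genes. None was lower, against 14.6%. The part of ATF4 in the *Slc7a11* level was not tested. At d20 *Sesn2* (88.7 CPM) and *Asns* (364 against 155 CPM) were higher than at d0, and *Ddit3* and *Atf4* (33.1 and 85.3 CPM) were lower on the log scale; *Ddit3* came to 18.6 CPM without the highest d20 cell. At d1 none was higher and *Ddit3* was lower. In d12c cells numbered 49 to 96, 4 of 7 were higher than at d12 (*Sesn2*, *Asns*, *Ddit3* and *Trib3*), against 17.3% of all genes. None was lower, against 32.2%, while *Slc7a11* was lower. *Trib3* counted as measured in this pair only through the d12c cells.

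**Figure D4:**
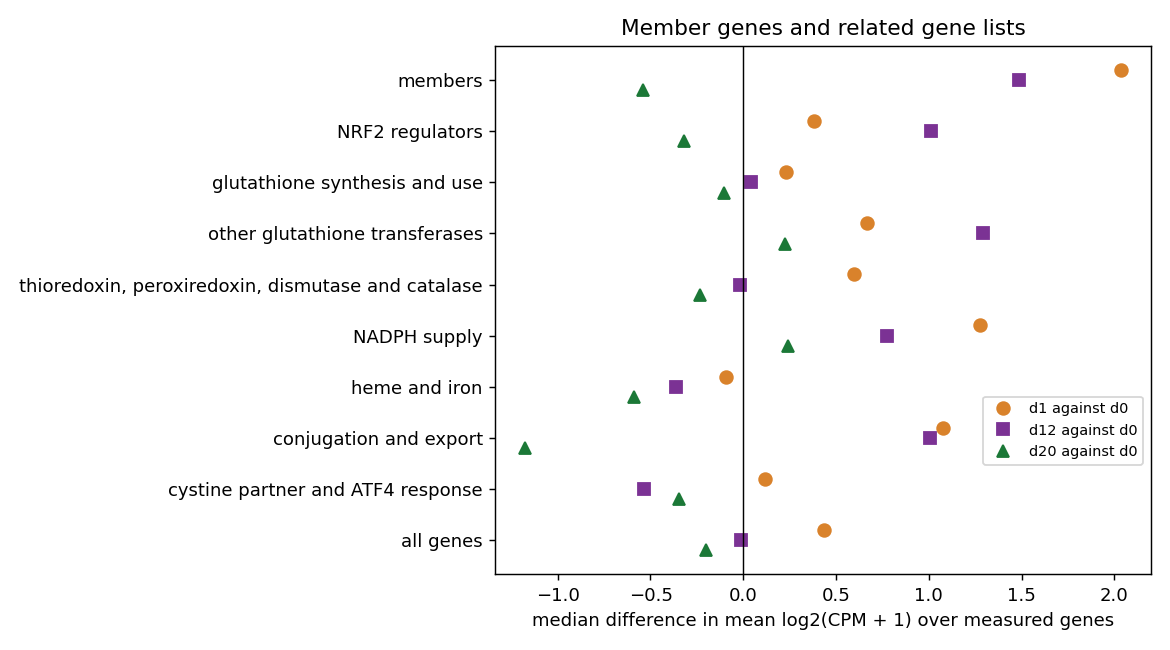
Each marker gives the median, over the measured genes of a list, of the difference in mean log2(CPM + 1) from d0, for d1, d12 and d20. Of the lists drawn, the members have the highest median at d1 (2.03) and d12 (1.48), where other glutathione transferases follow at 1.29. The members were chosen with earlier results of these data known, so this order is no independent result. Their medians include genes measured only through the later group, *Gsta1* and *Slc7a11* at d1 and *Slc7a11* at d12. At d20 the members lie at -0.54 with all genes at -0.20.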

How the data were processed

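Single-cell RNA-seq of the C6FAE course was used. In the deposited table of counts, the authors had sorted reads by cell barcode, trimmed them, mapped them to mouse transcripts of build mm9 and counted each UMI once per gene; the aligner is not given in the sources used here. The values are unscaled whole numbers, except that the 5 counts of 100000 or more were rounded. Of 23201 gene entries, 4 with repeated date-like names were left out, as were 92 ERCC RNAs from library sizes. Only cells with 4000 or more detected genes entered, and log2 used a pseudocount of 1. A gene was measured when its mean log2(CPM + 1) reached 1 in either group, and counted when the difference was at least 1. No test was run, since cell names hold no batch. Intervals at 95% are exact Poisson for sums of UMIs and exact Clopper-Pearson for shares of cells, and speak to counting error alone. For a share of 0, the limit is that of 3 cells. Members and lists were chosen with earlier results of these data known. Of each list, the 3 genes with the largest absolute difference at d12 and at d20 are named, and others were named after their values were seen. Likeness is Pearson's r over group means, with up to 3 genes per member. The difference count was tried on simulated data with changes planted only in genes of higher d0 level. That trial does not cover members with low d0 levels, such as *Gsta1*, *Gclc* and *Slc7a11*. Python 3.11.15, numpy 2.4.6, pandas 2.3.3, scipy 1.17.1 and R 4.3.3 were used, with edgeR 4.0.16 (TMM) and DESeq2 1.42.0 (size factors) on group sums for scaling alternatives only. Doublets were not called, as cells were picked by hand. Other alternatives were other cell and gene filters, a pseudocount of 10, medians, log2 of mean CPM, thinning to 50000 UMIs, number ranges, leaving out the highest cell and a difference of at least 2.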

Additional observations from a re-analysis of the deposited data

How the results depend on the processing

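Of 158 recomputed counts of members, 141 stayed within 1.5 times the reported count and 17 did not. A pseudocount of 10 gave 5 members higher at d1, 1 higher and 0 lower at d5, 1 lower at d12 and 4 lower at d20 against d12, and a required difference of 2 gave 5, 1, 0, 1 and 4 for the same counts, with 0 higher at d20 against d12. Without a filter on cells, 2 members were lower at d5 and 0 higher at d20 against d12. With at least 6000 detected genes, 1 member (*Gstm1*) was lower at d1, and under log2 of mean CPM 1 member (*Hmox1*) was. Medians gave 1 higher at d5 and 2 higher at d20 against d0. The call of *Gsta4* as lower at d12 than at d0 reversed under log2 of mean CPM (0.27). Of single member values, 554 moved by at most log2 of 1.5, a fixed limit, 115 moved by more and 1 reversed. TMM factors shifted the median of all genes at d20 against d0 from -0.20 to -0.34 and at d12 against d0 from -0.01 to 0.08, and changed no count past 1.5 times. Causes were not tested except where a stricter rule counts fewer by construction. Absence of *Gsta1*, *Nqo1* or *Slc7a11* in a cell was not resolved at the depth of d20. No paired analysis was possible because cell names hold no batch or replicate number, and no replicate could be left out for the same reason.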

Other observations

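The 138 cells under 4000 detected genes, with a median of 15259 UMIs, entered no comparison. *Txnrd1* was found in 71 of them (mean 134 CPM), *Gstm1* in 56 (170.3 CPM), *Gsta4* in 47 (114 CPM), *Hmox1* in 36 (53.9 CPM), *Gclm* in 23 (29.2 CPM), *Srxn1* in 14 (32.8 CPM), *Gclc* in 10 (20.95 CPM), *Nqo1* in 7 (3.30 CPM), *Slc7a11* in 6 (8.76 CPM) and *Gsta1* in 0.

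The number ranges within a group, which may mark plates or dishes, differed for some members. At d0 *Gsta1* had a mean of 1.98 CPM in cells numbered 1 to 48 and no UMI in the 29 others, and at d8 *Txnrd1* had 107 CPM in cells numbered 1 to 48 and 39.7 CPM in the rest. Also at d8, *Nqo1* had 2.85 and 28.8 CPM, *Gclm* 7.99 and 1.32 CPM and *Gstm1* 119.6 and 239.5 CPM. At d2 *Gclc* had 13.6 and 4.76 CPM and *Slc7a11* 33.1 and 17.6 CPM, and each other member differed between the ranges by less than 1.5 times. At d12 *Gsta4* had 117 and 276 CPM and *Gsta1* 0.311 and 38.2 CPM, while *Gstm1* had 239.7 and 284 CPM. Without the highest cell of each range, *Gsta4* had 55.4 and 90.04 CPM and *Gsta1* had 6.999 CPM in the later range.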
